A study of Mus musculus with 15 samples.

Results

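The genotype by DHA interaction asks, gene by gene, whether docosahexaenoic acid (DHA) changed a transcript differently in Tg2576 mice and in their wild-type (WT) littermates. It was computed as the DHA effect in Tg2576 mice minus the DHA effect in WT mice, from the read counts of all 15 hippocampi, and 19536 of the 55401 annotated genes held enough reads to be tested. A positive interaction therefore means that DHA moved the gene further up, or less far down, in Tg2576 than in WT mice, and a negative interaction the reverse. The mice were female, and the study's methods give their age as 18 to 20 months. Its discussion of spine counts names a higher approximate age. The 4 groups were WT vehicle (4 mice, labelled Tg2576 -/-), WT DHA (4 mice, Tg2576 -/-), Tg2576 vehicle (4 mice, labelled Tg2576 +/+) and Tg2576 DHA (3 mice, Tg2576 +/+). DHA was given at 450 mg/kg, diluted in sesame oil, by daily gavage for 5 weeks. Vehicle mice received sesame oil alone, so that every mouse was gavaged with sesame oil. Tg2576 mice carry human APP with the Swedish mutation under the hamster prion promoter, which drives it across the brain and not in the hippocampus alone, and form amyloid plaques with age.

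DHA is the main polyunsaturated fatty acid of neuronal membranes. It is also a ligand of nuclear receptors such as RXR and PPAR and a precursor of lipid mediators. Its membrane and transcriptional effects can touch many functions at once, and for this reason the interaction was read over 49 lists of genes, 21 marking cell classes and 28 marking functions, as well as over single genes. In old hippocampus these functions include translation by cytosolic ribosomes, respiration by mitochondria, the activity-dependent immediate early genes of neurons and the surveillance of tissue by microglia.

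The libraries held 17372864 to 46596489 counted reads, and all files name 1 flow cell and lane. App, the gene of the transgene, was at 1651, 1787, 1763 and 1608 CPM (read counts scaled to the size of each library) in WT vehicle, 1572, 1652, 1724 and 1615 in WT DHA, 2615, 2365, 2313 and 2076 in Tg2576 vehicle and 2286, 2553 and 2787 in Tg2576 DHA mice. Every Tg2576 mouse was above every WT mouse, and the App interaction was 0.17 ± 0.12 (log2 ± SE) and did not pass p under 0.05. Reads were aligned to the mouse genome and the transgene is human, so these values do not measure the level of the transgene itself. The hippocampal lists were present in all mice, with summed levels of 754 to 1097 CPM for dentate granule cells, 919 to 1206 CPM for CA1 and 542 to 640 CPM for CA3 pyramidal cells. Choroid plexus genes summed to between 223 and 7018 CPM, a far wider spread between mice.

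At an unadjusted p under 0.01, the threshold used in the study, 162 genes showed an interaction in edgeR's quasi-likelihood test (0.829% of those tested). The interaction was positive in 87 genes (0.445%) and negative in 75 (0.384%). No gene passed a Benjamini-Hochberg adjusted p of 0.05 in edgeR or in limma-voom, and the smallest edgeR value was 0.845. DESeq2 gave 1 such gene, Sertad1 (adjusted p = 0.0103). At an unadjusted p under 0.05 the interaction passed in 1001 genes (5.12%). Both counts lie near what the thresholds alone would give, so the genes below are described as the leading ones rather than as an established set.

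Of the 162 genes, 159 had DHA effects of opposite sign in the 2 genotypes, against 55.8% of all genes tested. Choosing genes for a large difference between genotypes itself favours opposite signs, so nothing is read from this share. The positive interactions ranged from 0.32 to 4.02 on the log2 scale and the negative ones from -0.37 to -8.45, and the median SE of an interaction over all genes was 0.25. DHA alone passed p under 0.01 in 270 genes in WT (1.38%) and in 69 in Tg2576 mice (0.353%). The change in WT was the larger one for 60 of the 87 positive and 43 of the 75 negative genes. For 52 of the positive and 29 of the negative genes, neither genotype passed p under 0.01 alone, and only the difference between them did.

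A stricter reading asks for a response in each genotype. DHA passed p under 0.05 in 1157 genes in WT (5.92%) and in 618 in Tg2576 mice (3.16%). It did so in both genotypes with opposite signs in 29 genes (0.148%), and with the same sign in 33 (0.169%). Of the 29 opposed genes, 14 were higher with DHA in WT and lower in Tg2576 mice, and 15 showed the reverse. Counted by mice rather than by a test, DHA and vehicle mice did not overlap in 5.02% of genes in WT and in 3.21% in Tg2576 mice. Of these, 15 genes (0.0768%) stood apart in both genotypes in opposite directions, and 22 (0.113%) in the same direction. The tested counts moved with single mice: 126 genes were opposed and 63 shared their sign without Tg2576 DHA replicate 1, and 78 and 47 without Tg2576 vehicle replicate 2.

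**Figure D1:**
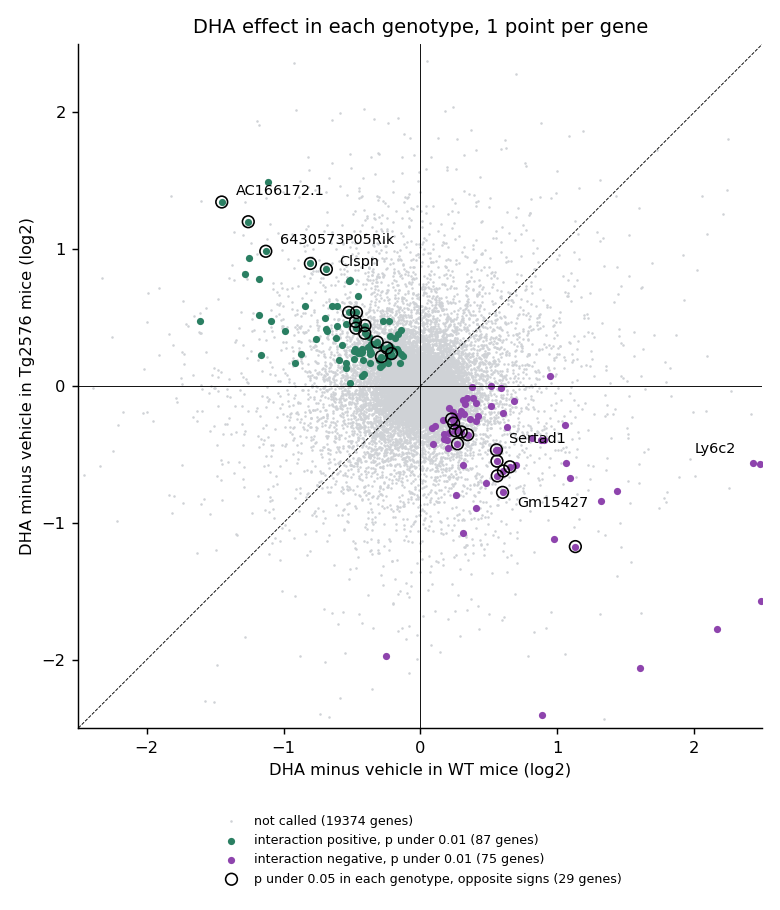
Each point is 1 of the genes tested, with the DHA effect in WT mice on the horizontal and in Tg2576 mice on the vertical axis (log2, DHA minus vehicle); 46 genes lie beyond the axis limits of 2.5. The 87 genes with a positive interaction (green) and the 75 with a negative one (purple) lie almost entirely in the upper left and lower right quadrants, the circles mark the 29 opposed genes, and the dashed line marks equal effects in the 2 genotypes.

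Sertad1 had the lowest p of all. It encodes a SERTA-domain transcriptional coregulator that also binds CDK4, and lies at chr7:27486910-27490316, + strand (GRCm38). It was at 6.78, 6.0, 7.16 and 6.8 CPM in WT vehicle and at 9.16, 9.16, 10.2 and 10.8 CPM in WT DHA mice. Tg2576 mice stood at 12.4, 9.95, 9.8 and 10.5 CPM under vehicle and 9.21, 6.8 and 7.09 CPM under DHA. The groups did not overlap in either genotype, with DHA effects of 0.56 ± 0.14 in WT and -0.47 ± 0.15 in Tg2576 mice that each passed p under 0.01. The interaction was -1.02 ± 0.20 (log2 ± SE), and its adjusted p of 0.845 in edgeR was shared by other leading genes. Levels in WT DHA mice were close to those of Tg2576 vehicle mice, and levels in Tg2576 DHA close to those of WT vehicle mice.

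Wnk4, a kinase that regulates cation-chloride cotransporters (chr11:101260567-101277409, + strand), followed the same course. It was at 8.42, 6.72, 7.77 and 8.39 CPM in WT vehicle and 14.4, 8.99, 10.9 and 13.5 CPM in WT DHA mice. Tg2576 vehicle mice had 9.82, 6.92, 8.51 and 12 CPM and Tg2576 DHA mice 7.41, 6.15 and 4.57 CPM. The WT groups were apart and the Tg2576 groups overlapped through 1 vehicle mouse, and the interaction was -1.23 ± 0.29. Sertad1 and Wnk4 were the only genes whose DHA effect passed p under 0.01 in each genotype with opposite signs.

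Apba3 encodes an adaptor of the X11 family, proteins that bind the cytoplasmic tail of APP (chr10:81266960-81273246, + strand). Its level was 24.4, 24.7, 27.3 and 24.1 CPM in WT vehicle and 32.1, 30.7, 33.7 and 38.3 CPM in WT DHA mice, against 27.6, 26.6, 27.3 and 32.8 CPM in Tg2576 vehicle and 26.4, 21.7 and 25.7 CPM in Tg2576 DHA mice. DHA and vehicle mice were apart in both genotypes. The WT effect of 0.42 ± 0.10 passed p under 0.01, the Tg2576 effect of -0.22 ± 0.11 did not pass 0.05, and the interaction was -0.64 ± 0.15.

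Cd47 codes for a surface protein that restrains phagocytosis through the receptor SIRPα, and was the most abundant of the 12 leading negative genes (chr16:49800533-49915010, + strand). It measured 128, 132, 123 and 137 CPM in WT vehicle, 159, 139, 152 and 171 CPM in WT DHA, 122, 155, 148 and 169 CPM in Tg2576 vehicle and 131, 107 and 118 CPM in Tg2576 DHA mice. The interaction of -0.58 ± 0.15 came from 0.26 in WT and -0.33 in Tg2576 mice. The vehicle and DHA groups were apart in WT and met in 1 mouse in Tg2576.

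Lrrc8a, the obligatory subunit of the volume-regulated anion channel (chr2:30237715-30263790, + strand), was led by the Tg2576 groups. These were apart, at 23.9, 18.8, 21.4 and 18.4 CPM under vehicle and 17.6, 14.1 and 14.4 CPM under DHA, while WT vehicle mice (12.2, 13.6, 15 and 16.6 CPM) and WT DHA mice (16.3, 16.6, 18.2 and 18.1 CPM) overlapped. Its interaction was -0.69 ± 0.18. Traip, a ubiquitin ligase of DNA replication, and Gpx1, the cytosolic glutathione peroxidase, passed the test for DHA in WT mice alone. Traip was at 24.3, 24.4, 23.5 and 24.3 CPM in WT vehicle and 44.4, 29.6, 34.8 and 37.9 CPM in WT DHA mice (interaction -0.80 ± 0.19). For Gpx1 the WT values were 39.7, 43.2, 38.5 and 44.8 CPM under vehicle and 48.8, 46.3, 59.1 and 66.3 CPM under DHA (interaction -0.67 ± 0.17). In Tg2576 mice the groups overlapped for both genes.

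The other negative genes of lowest p were less secure. Ly6c2, a surface antigen of monocytes with near-identical copies in its family, was at 0.28, 0.339, 0.27 and 0.421 CPM in WT vehicle and 1.32, 2.44, 1.6 and 1.97 CPM in WT DHA mice, but at 3.24, 0.517, 1.89 and 2.85 CPM in Tg2576 vehicle and 0.612, 1.86 and 1.74 CPM in Tg2576 DHA mice (interaction -3.05 ± 0.69). Gm47283 is annotated on chromosome Y although the mice were female, so its reads cannot be told from those of a similar sequence elsewhere. Its interaction was -1.24 ± 0.30. The pseudogene Gm15427 (interaction -1.38 ± 0.34) ranged from 1.35 to 4.23 CPM. Gm10435, annotated antisense to another gene and counted without a stated strand setting, had 5, 5, 7 and 12 reads in Tg2576 vehicle and 1, 2 and 1 reads in Tg2576 DHA mice (interaction -4.87 ± 1.22). The long noncoding RNA 9430037G07Rik had 0, 2, 0 and 5 reads in WT vehicle and 9, 34, 12 and 28 reads in WT DHA mice (interaction -5.92 ± 1.51).

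Among the genes with a positive interaction, Shisa2 encodes a protein of the endoplasmic reticulum that holds back FGF and Wnt receptors (chr14:59625308-59631660, + strand). It was at 6.63, 6.19, 5.0 and 5.21 CPM in WT vehicle and 3.92, 4.29, 4.34 and 3.45 CPM in WT DHA mice, and at 3.63, 5.04, 3.61 and 3.58 CPM in Tg2576 vehicle and 4.89, 5.17 and 7.28 CPM in Tg2576 DHA mice. The effects were -0.52 ± 0.18 in WT and 0.54 ± 0.20 in Tg2576 mice, both past p under 0.05, with an interaction of 1.06 ± 0.27. WT groups were apart, whereas in Tg2576 mice 1 vehicle mouse at 5.04 CPM reached into the DHA group.

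Clspn, which encodes the replication checkpoint adaptor claspin (chr4:126556935-126593903, + strand), was scarce. It stood at 2.33, 2.27, 1.76 and 2.29 CPM in WT vehicle, 0.704, 1.56, 1.76 and 1.34 CPM in WT DHA, 0.908, 1.16, 0.817 and 0.976 CPM in Tg2576 vehicle and 1.44, 2.16 and 1.66 CPM in Tg2576 DHA mice (interaction 1.54 ± 0.40). The Tg2576 groups were apart and the WT groups met at 1.76 CPM. Kif26b, a kinesin family member (chr1:178529125-178939200, + strand), gave 27.8, 33, 22.3 and 24.3 CPM in WT vehicle and 20, 23.4, 16.1 and 21.2 CPM in WT DHA mice, then 13.2, 18.4, 14.5 and 15.7 CPM in Tg2576 vehicle and 18.3, 19.7 and 22.7 CPM in Tg2576 DHA mice. Its interaction was 0.79 ± 0.21, and vehicle and DHA mice overlapped in both genotypes.

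For the remaining positive genes the WT change led. Stra6, the membrane receptor for retinol-binding protein (chr9:58063788-58153996, + strand), was at 33.7, 34.2, 32.7 and 26.9 CPM in WT vehicle and 23, 22.1, 20.2 and 19.2 CPM in WT DHA mice, and between 19.1 and 28.8 CPM in Tg2576 mice (interaction 0.78 ± 0.19). 1190002N15Rik was at 21.9, 24.9, 23.6 and 23.2 CPM in WT vehicle and 13.8, 16.3, 19 and 13.6 CPM in WT DHA mice (interaction 0.87 ± 0.20). Both genes had WT groups that were apart and Tg2576 groups that overlapped. Maml2, a coactivator of Notch (-0.49 in WT, 0.26 in Tg2576, interaction 0.74 ± 0.19), and Klhl9, an adaptor of cullin-3 ubiquitin ligases (-0.37 and 0.17, interaction 0.54 ± 0.14), behaved likewise. So did Zeb2, a zinc finger repressor of transcription (-0.37 and 0.23, interaction 0.60 ± 0.17), although its groups overlapped in both genotypes.

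The 12 positive genes were completed by 3 transcripts of low level and by Pcdhb8, a clustered protocadherin described further on. The long noncoding RNA AC166172.1 had DHA and vehicle mice apart in both genotypes, at 21, 12, 16 and 11 reads in WT vehicle and 4, 6, 4 and 2 in WT DHA, then 6, 6, 2 and 4 in Tg2576 vehicle and 14, 17 and 12 in Tg2576 DHA mice (interaction 2.80 ± 0.68). 6430573P05Rik was also apart in both genotypes (-1.13 in WT, 0.98 in Tg2576, interaction 2.11 ± 0.53). Gm38214, a transcript of unsettled status in the annotation, had an interaction of 1.57 ± 0.43. These 24 genes were taken for their low p, so their p-values describe the choice and are not further evidence.

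**Figure D2:**
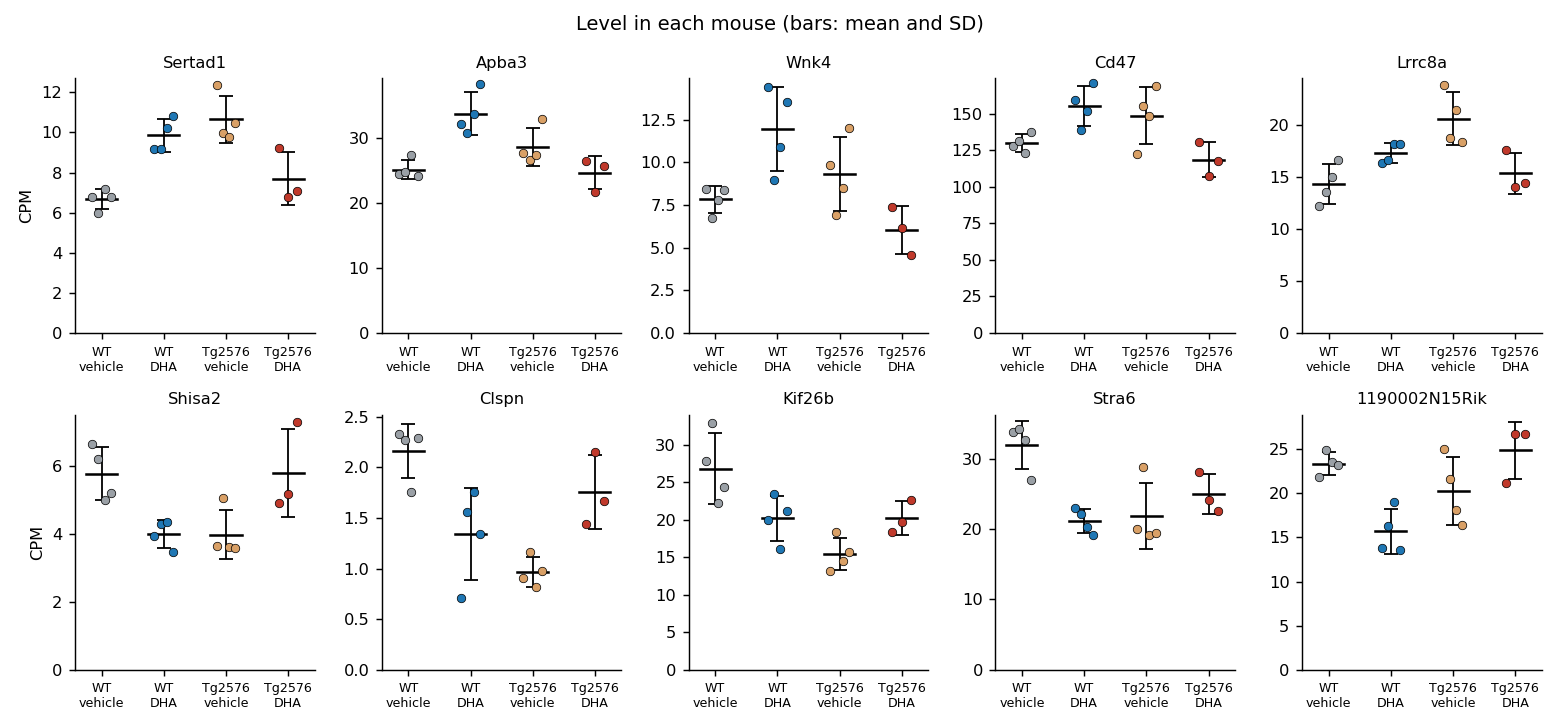
Level of 10 leading genes in each mouse (CPM, 1 point per mouse; bars show mean and SD of 4 or, for Tg2576 DHA, 3 mice). In the upper row the mean is higher with DHA in WT and lower in Tg2576, as for Sertad1 with 9.16 to 10.8 against 6.0 to 7.16 CPM in WT and 6.8 to 9.21 against 9.8 to 12.4 CPM in Tg2576; the lower row shows the reverse course.

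The 2 directions differed in base composition and length. Exons of the genes with a positive interaction had a median GC content of 45.5% and a median summed length of 5211 bases, those with a negative interaction 54.8% and 2890 bases, and all genes tested 49.6% and 3693 bases. Some leading genes ran against their direction. Exon GC content was 54.2% in Shisa2 and 53.1% in Kif26b, both positive, and 42.2% in Cd47, which was negative. Coding stretches of 120 bases are shown for 2 genes of each direction, picked as examples and not by a rule. They lie in the middle of the longest coding exon (GRCm38, GENCODE M21) and have G and C in capitals. Sertad1 (chr7:27489550-27489669, + strand, exon 2 of 2) held 60% and Apba3 (chr10:81269119-81269238, + strand, exon 3 of 12) 65.8% G or C, against 44.2% in Zeb2 (chr2:44996951-44997070, - strand, exon 8 of 10) and in Klhl9 (chr4:88721018-88721137, - strand, exon 1 of 1).
Sertad1: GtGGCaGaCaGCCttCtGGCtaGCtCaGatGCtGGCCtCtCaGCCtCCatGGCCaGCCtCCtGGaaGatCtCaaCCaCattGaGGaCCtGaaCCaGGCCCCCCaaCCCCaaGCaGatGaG
Apba3: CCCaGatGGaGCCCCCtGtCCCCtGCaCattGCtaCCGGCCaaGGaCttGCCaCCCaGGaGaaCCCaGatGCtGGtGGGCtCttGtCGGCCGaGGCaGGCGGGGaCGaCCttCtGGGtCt
Zeb2: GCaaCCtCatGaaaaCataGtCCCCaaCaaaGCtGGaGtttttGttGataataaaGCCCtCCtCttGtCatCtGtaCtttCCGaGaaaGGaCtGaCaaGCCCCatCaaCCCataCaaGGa
Klhl9: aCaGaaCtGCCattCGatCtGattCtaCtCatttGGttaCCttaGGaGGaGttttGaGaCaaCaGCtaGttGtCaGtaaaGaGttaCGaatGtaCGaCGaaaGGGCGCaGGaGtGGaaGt

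Across all genes the gradient was continuous and ran in opposite directions in the 2 genotypes. With the genes divided into 5 equal bins, the bin of lowest GC content had a median DHA effect of -0.094 in WT and 0.049 in Tg2576 mice. In the bin of highest GC content it was 0.066 in WT and -0.061 in Tg2576 mice. The median interaction accordingly went from 0.14 through 0.070, 0.014 and -0.059 to -0.13. In the lowest bin 28 genes were called positive and 9 negative, and in the highest bin 6 positive and 32 negative. Both bins held 3904 genes, and over all genes 0.445% were called positive and 0.384% negative. By summed exon length the median interaction went from -0.11 in the bin of shortest to 0.12 in the bin of longest genes. By mean expression it stayed between -0.0077 and 0.028.

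Single mice spread widely along this gradient. The difference between the bins of highest and lowest GC content, taken over the median deviation of genes from their mean in all mice, was -0.15, -0.079, 0.17 and -0.094 in WT vehicle and 0.045, 0.014, 0.16 and 0.29 in WT DHA mice. It was 0.021, -0.17, -0.0093 and 0.19 in Tg2576 vehicle and 0.072, -0.19 and -0.18 in Tg2576 DHA mice. The groups overlapped in both genotypes. Its part in the interaction was not tested beyond fits with offsets for GC content and length, which gave 134 calls with the GC offset, 190 with the length offset and 169 with both, of which 115, 133 and 115 were among the 162.

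**Figure D3:**
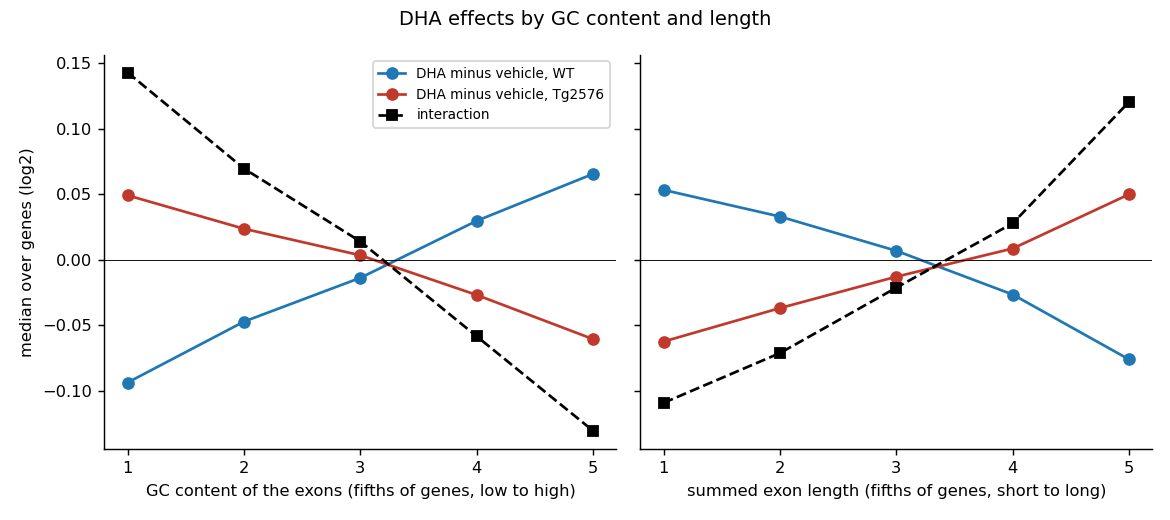
Median DHA effect over genes (log2) in WT and Tg2576 mice and median interaction, in 5 equal bins of genes by GC content of the exons (left) and by summed exon length (right). The WT and Tg2576 lines cross: GC-rich and short genes lie above 0 in WT and below 0 in Tg2576 mice, and the interaction runs from 0.14 to -0.13 with GC content and from -0.11 to 0.12 with length.

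Promoters were closer to each other in composition. RefSeq promoter windows of 250 bases before to 50 after the first listed start (GRCm38.p6) were at hand for 59 positive and 50 negative genes, with median GC contents of 58.7% and 60% against 60% in all 13008 windows. A cyclic AMP response element (CRE, TGACGTCA, its own reverse complement) was found in 1 positive and 4 negative promoters, against 2.97% of all windows, and an E-box (CACGTG, likewise palindromic) in 3 and 4, against 9.49%. No promoter of either direction held the NBRE motif of NR4A receptors (AAAGGTCA, either strand), which was present in 0.93% of all windows. Lrrc8a was 1 of the 4, and the stretch before its annotated first exon (chr2:30237519-30237714, + strand) is shown because it holds both a CRE and an E-box, in capitals.
Lrrc8a: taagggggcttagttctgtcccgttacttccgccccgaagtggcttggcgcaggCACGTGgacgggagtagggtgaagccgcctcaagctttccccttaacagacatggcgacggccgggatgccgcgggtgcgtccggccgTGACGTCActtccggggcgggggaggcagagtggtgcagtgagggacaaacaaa

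Turning from single genes to functions and cell classes, 1187 of the 1196 distinct genes in the 49 lists were tested, and 9 of them (0.758%) passed p under 0.01 for the interaction, close to the 0.829% of all genes. A list was taken as opposed when its median DHA effects in WT and in Tg2576 mice, each relative to the median of all genes (-0.013 and -0.0039), had opposite signs and a size of at least 0.05, with at least 8 genes tested. This was met by 13 lists, 4 of them higher with DHA in WT and lower in Tg2576 and 9 the reverse. Only choroid plexus, cytosolic ribosomal proteins and immediate early genes still met it at 0.1. For comparison, 27.0% of all genes were higher with DHA in WT and lower in Tg2576 mice, and 28.8% the reverse. Genes of a list vary together between mice, so counts within a list are not independent observations. In whole tissue, moreover, fewer cells of a class and less RNA per cell cannot be told apart.

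**Figure D4:**
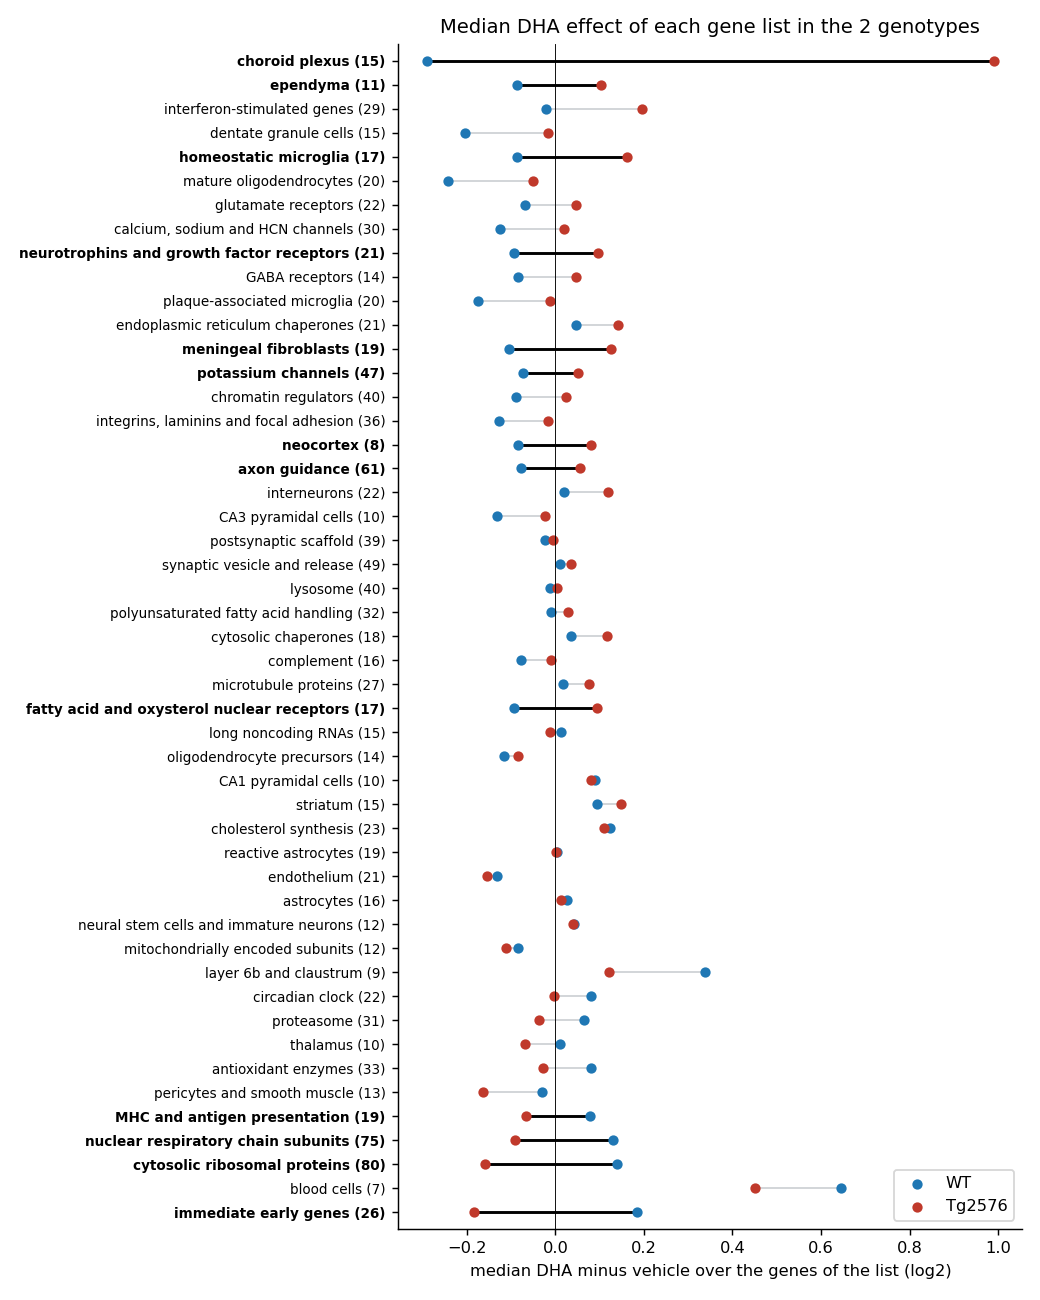
Median DHA effect (log2, DHA minus vehicle) over the tested genes of each of 49 lists in WT (blue) and Tg2576 mice (red), sorted by median interaction, with the number of genes tested in brackets. The 13 opposed lists are drawn in black and bold, with immediate early genes at 0.18 in WT and -0.18 in Tg2576 at the lower end and choroid plexus at -0.29 and 0.99 at the upper end.

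Cytosolic ribosomal proteins, the protein part of the translating ribosome, formed a largely uniform list. Of 80 genes tested, 75 had a negative interaction and 74 were higher with DHA in WT while lower in Tg2576 mice. The median effects were 0.14 in WT and -0.16 in Tg2576 mice, with a median interaction of -0.32. None passed p under 0.01 and 4 passed p under 0.05 (0.829% and 5.12% of all genes did). Rpl34 led with 67.9, 70.4, 73.6 and 55.1 CPM in WT vehicle, 109, 89.9, 86.4 and 109.8 in WT DHA, 49, 84.9, 128 and 97.4 in Tg2576 vehicle and 96.9, 58.9 and 69 in Tg2576 DHA mice (interaction -0.83 ± 0.33). Rplp1, the most abundant member, had an interaction of -0.50 ± 0.21 and Rpl21 one of -1.01 ± 0.43. Ribosomal protein genes have many processed pseudogenes, and by the default of the counting tool reads that fit several places are left out.

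By mouse, the median deviation of the ribosomal list from its mean over all mice was -0.28, -0.17, -0.10 and 0.058 in WT vehicle and 0.039, -0.22, 0.13 and 0.17 in WT DHA mice (log2 CPM). In Tg2576 mice it was -0.17, 0.002, 0.28 and 0.41 under vehicle and 0.29, -0.26 and -0.16 under DHA. The groups overlapped in both genotypes, and the spread within a group was as large as the differences between groups. Tg2576 DHA replicate 1 stood with the high Tg2576 vehicle mice. Without it the median interaction of the list was -0.53, and with 1 surrogate variable (a factor of variation between mice estimated from the counts themselves) it was -0.063. High ribosomal levels went with high levels of short genes in these mice. The difference between the bins of longest and shortest genes was -0.41 in Tg2576 DHA replicate 1 and -0.36 in Tg2576 vehicle replicate 4, against 0.25 in Tg2576 DHA replicate 2. With offsets that remove length and GC trends from each mouse, the median interaction was -0.22. The part of gene length in the list was not tested further.

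Nuclear-encoded subunits of the respiratory chain, which carry oxidative phosphorylation, shared the course of the ribosomal list. Of 75 genes, 62 were higher with DHA in WT and lower in Tg2576 mice, with medians of 0.13 and -0.092 and a median interaction of -0.25. None passed p under 0.01 and 2 passed p under 0.05 (0.829% and 5.12% of all genes did). The median summed exon length was 1801 bases in this list and 3693 bases over all genes. Atp5g2, a subunit of the ATP synthase rotor ring, had the lowest p (0.25 in WT, -0.22 in Tg2576, interaction -0.47 ± 0.18), followed by the complex I subunit Ndufb8 (interaction -0.44 ± 0.20) and the cytochrome oxidase subunit Cox6a1 (interaction -0.54 ± 0.25). The per-mouse deviations were -0.23, -0.15, -0.049 and 0.075 in WT vehicle, 0.016, -0.15, 0.16 and 0.15 in WT DHA, -0.20, -0.014, 0.15 and 0.36 in Tg2576 vehicle and 0.29, -0.23 and -0.15 in Tg2576 DHA mice. The groups overlapped again, and with 1 surrogate variable the median interaction was -0.00053. With Tg2576 DHA replicate 1 left out it was -0.44, and with replicate 2 of that group omitted -0.13, where the Tg2576 median was 0.018. The list was not opposed with 1 surrogate variable or with the length offset. Nor was it with replicate number added to the fit, alone or with either offset. It also lost this status without Tg2576 DHA replicate 2 or 3 or Tg2576 vehicle replicate 4. The 12 subunits encoded by mitochondrial DNA did not share the course of the nuclear-encoded list, with medians of -0.084 in WT and -0.11 in Tg2576 mice.

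Immediate early genes are switched on in neurons within minutes of activity and encode mainly transcription factors and synaptic regulators. Of 26 genes, 18 were higher with DHA in WT and lower in Tg2576 mice (medians 0.18 and -0.18, median interaction -0.38). None passed p under 0.01 for the interaction and 5 passed p under 0.05, which 0.829% and 5.12% of all genes did. Junb, a component of AP-1, was at 79.1, 79.9, 115 and 114 CPM in WT vehicle and 119.7, 92.1, 123 and 171 CPM in WT DHA mice, with 139, 142, 80.3 and 96.8 CPM in Tg2576 vehicle and 95.6, 72.5 and 92.1 CPM in Tg2576 DHA mice (interaction -0.79 ± 0.31). The orphan nuclear receptor Nr4a1 gave an interaction of -0.86 ± 0.35, the small Maf factor Maff -1.47 ± 0.60, and Arc, which regulates AMPA receptor endocytosis, -1.08 ± 0.51. Ptgs2, the inducible cyclooxygenase, was the only member past p under 0.01 for DHA in WT mice and ran the other way (-0.56 ± 0.16 in WT, interaction 0.50 ± 0.23).

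The Tg2576 side of the immediate early genes rested on 1 mouse. Deviations were -0.20, -0.44, 0.023 and 0.11 in WT vehicle, 0.14, 0.001, 0.036 and 0.19 in WT DHA, 0.02, 0.56, -0.36 and -0.11 in Tg2576 vehicle and -0.037, -0.11 and 0.016 in Tg2576 DHA mice. Tg2576 vehicle replicate 2 was the highest of all 15, with Arc at 401 CPM against 137 to 220 CPM in the other Tg2576 vehicle mice. Without it the median DHA effect in Tg2576 mice was 0.038 and the median interaction -0.12. Of the 20 promoters at hand for this list, those of Btg2 and Dusp1 held a CRE (10%, against 2.97% of all windows). The share was 10.2% in the ribosomal and 8.06% in the respiratory list. An E-box was in 5 of the 20 (25%, against 9.49% of all windows). These shares were not tested.

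MHC and antigen presentation genes were the fourth list of this direction. Of 19 genes, 11 were higher with DHA in WT and lower in Tg2576 mice (medians 0.077 and -0.065, median interaction -0.23). Psmb10, a catalytic subunit of the immunoproteasome, led with 29.4, 29.5, 32.3 and 29.3 CPM in WT vehicle and 37.9, 37.2, 40.3 and 48.8 CPM in WT DHA mice (interaction -0.63 ± 0.24). The peptide transporter Tap1 had 18.6, 5.75, 7.65 and 7.48 CPM in Tg2576 vehicle mice, where 1 mouse was far above the others (interaction -0.77 ± 0.40). Without WT DHA replicate 2 the median interaction of the list was 0.080, so its direction depended on that mouse.

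**Figure D5:**
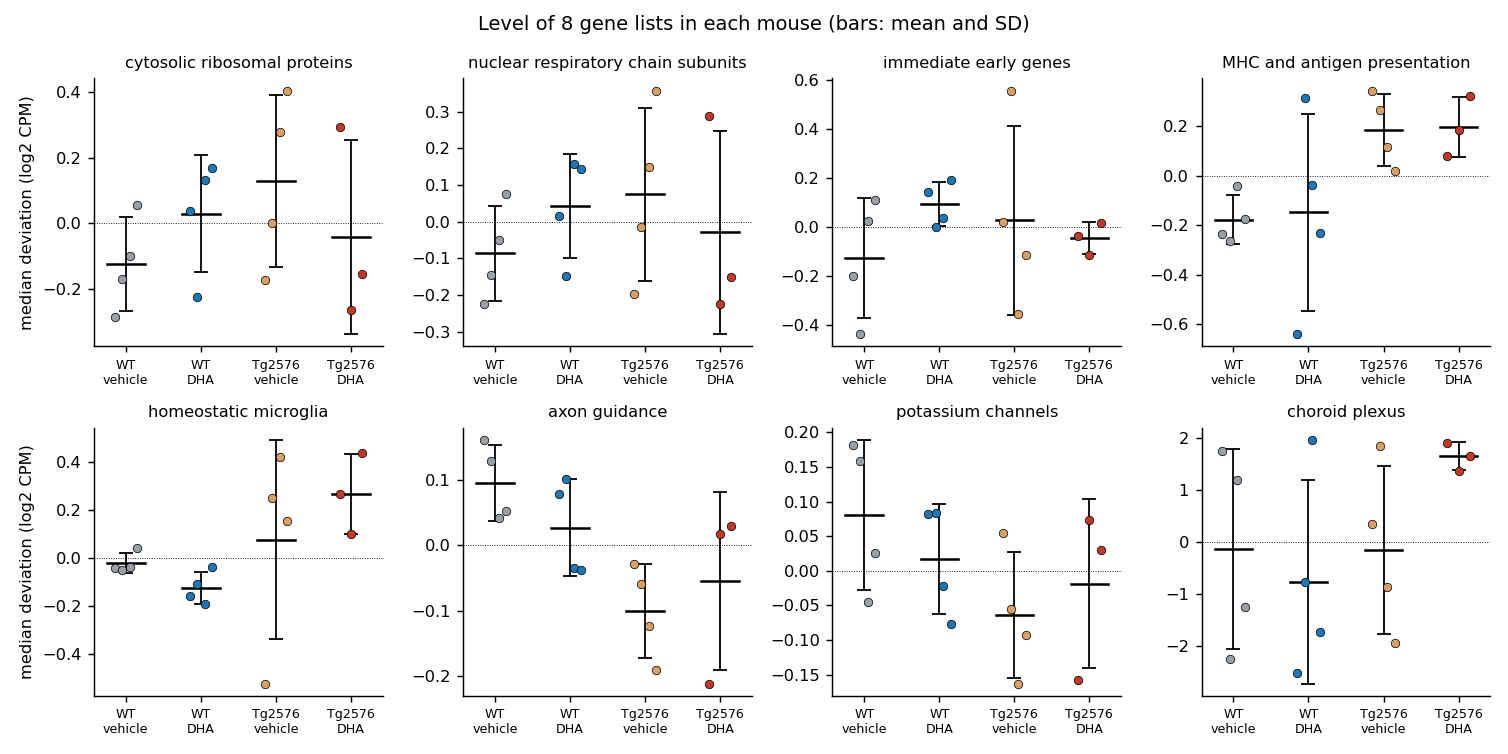
Median deviation of 8 gene lists in each mouse from the mean of all mice (log2 CPM, 1 point per mouse; bars show mean and SD). DHA and vehicle mice overlap in both genotypes in each of the 8 panels, and single mice such as Tg2576 DHA replicate 1 (0.29 for ribosomal proteins) lie far from their group.

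In the opposite direction, homeostatic microglia genes were lower with DHA in WT and higher in Tg2576 mice. Of 17 genes, 9 showed this course and 14 had a positive interaction (medians -0.087 and 0.16, median interaction 0.19). Of the 17, 1 passed p under 0.01, which 0.829% of all genes did. The purinergic receptor P2ry12 (interaction 0.52 ± 0.24) and the transcription factor Sall1 (interaction 0.38 ± 0.17) did not pass p under 0.01. The deviations by mouse were -0.041, -0.049, -0.038 and 0.042 in WT vehicle, -0.16, -0.11, -0.19 and -0.037 in WT DHA, -0.52, 0.25, 0.42 and 0.16 in Tg2576 vehicle and 0.27, 0.10 and 0.44 in Tg2576 DHA mice. The groups overlapped in both genotypes, and Tg2576 vehicle replicate 1 was lowest of all. Over the settings and omissions tried, the median interaction of this list ranged from 0.11 to 0.34. The medians behind it were less stable, at 0.017 in Tg2576 mice without Tg2576 vehicle replicate 1 and 0.026 in WT mice without WT DHA replicate 1. The list was then not opposed, and neither was it without WT vehicle replicate 1 or WT vehicle replicate 4. Plaque-associated microglia genes were lower with DHA in WT mice (-0.17) and near 0 in Tg2576 mice (-0.012), and did not meet the rule.

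Small opposed medians were found in 4 neuronal and signalling lists. Axon guidance genes were at -0.078 in WT and 0.055 in Tg2576 mice, and 29 of 61 were lower with DHA in WT and higher in Tg2576 mice. Their leading members were the semaphorin Sema6d (interaction 0.45 ± 0.15), the netrin receptor neogenin, Neo1 (0.44 ± 0.16), and the ephrin receptor Epha5 (0.45 ± 0.16). Of the 61, 8 passed p under 0.05 (5.12% of all genes). The median interaction of the list ranged from 0.058 to 0.19 when 1 mouse was left out and was 0.028 with 1 surrogate variable. The list was not opposed with 1 surrogate variable, with the length offset or with both offsets. Nor was it with replicate number added to the fit, alone or with either offset. It also lost this status without Tg2576 DHA replicate 2 or 3, Tg2576 vehicle replicate 4, WT DHA replicate 1 or WT vehicle replicate 3. Sema6d was at 111, 100.4, 88.9 and 90.9 CPM in WT vehicle and 79.6, 78.2, 78.1 and 71.9 CPM in WT DHA mice, which were apart, and the Tg2576 groups overlapped.

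Potassium channels were at -0.073 and 0.052, with 23 of 47 lower in WT and higher in Tg2576 mice. Kcna4, which forms the A-type channel Kv1.4, was the only member past p under 0.01 (0.829% of all genes passed). It was at 35.3, 31.2, 27.5 and 30.3 CPM in WT vehicle, 27.7, 25.1, 21.8 and 22.2 CPM in WT DHA, 22.5, 28.3, 20.8 and 16.3 CPM in Tg2576 vehicle and 24.4, 26.1 and 27.6 CPM in Tg2576 DHA mice, with overlap in both genotypes (interaction 0.60 ± 0.20). Kcnh3 (-0.40 ± 0.14) and the sodium-activated channel Kcnt1 (-0.68 ± 0.30) ran in the negative direction. With length and GC offsets together the median interaction of this list was 0.022, and with 1 surrogate variable -0.043. The list was not opposed with limma-voom, with either offset or both, or with 1 surrogate variable. Nor was it with replicate number added to the fit, alone or with either offset. It also lost this status without Tg2576 DHA replicate 2 or 3 or Tg2576 vehicle replicate 2, 3 or 4. The same held without WT DHA replicate 4 or WT vehicle replicate 1 or 2.

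Neurotrophins and growth factor receptors were at -0.093 and 0.096 over 21 genes, led by Fgfr2 (0.52 ± 0.22) and the neurotrophin-3 receptor Ntrk3 (0.39 ± 0.22). This list was not opposed with 1 surrogate variable or with the length offset, alone or with replicate number added to the fit. It also lost this status without Tg2576 DHA replicate 3, Tg2576 vehicle replicate 4 or WT DHA replicate 4. Fatty acid and oxysterol nuclear receptors, which include the receptors that bind DHA, were at -0.093 and 0.093 over 17 genes. Their median interaction was only 0.03, with 9 members positive and 8 negative, so the list was opposed in its medians but not in its members. Its lowest p belonged to 2 negative members, the retinoic acid receptor Rara (-0.37 ± 0.17) and the oxysterol receptor Nr1h2 (-0.28 ± 0.13). With both offsets the median interaction was 0.0080 for growth factor receptors and 0.095 for nuclear receptors. With 1 surrogate variable it was -0.0087 and -0.082. For nuclear receptors it was also below 0 without Tg2576 DHA replicate 3 (-0.02), WT DHA replicate 1 (-0.014) or WT DHA replicate 4 (-0.025).

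The 4 remaining opposed lists mark tissue at the border of the hippocampus. Choroid plexus is the epithelium that secretes cerebrospinal fluid. All 15 of its genes were lower with DHA in WT and higher in Tg2576 mice, with medians of -0.29 and 0.99. Yet none passed even p under 0.05, which 5.12% of all genes did. The WT median was 0.27 without WT vehicle replicate 1 and -2.01 when WT DHA replicate 3 was omitted, with median interactions of 0.91 and 3.0. The summed level was 4129, 326, 4445 and 439 CPM in WT vehicle, 223, 646, 7018 and 325 CPM in WT DHA, 1761, 4433, 719 and 325 CPM in Tg2576 vehicle and 6479.8, 4240.2 and 4405 CPM in Tg2576 DHA mice. High and low mice occurred together in 3 of the 4 groups, and all 3 Tg2576 DHA mice were high. Ttr, the thyroid hormone carrier that is the most abundant transcript of this epithelium, ranged from 33.5 to 5603 CPM over the 15 mice. The prolactin receptor Prlr had an interaction of 1.81 ± 1.22, the anti-ageing protein klotho, Kl, one of 1.43 ± 1.01 and the phospholipase Enpp2 one of 1.61 ± 1.19.

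Meningeal fibroblasts (medians -0.10 in WT and 0.13 in Tg2576, 19 genes) and ependyma (-0.088 and 0.10, 11 genes) reversed the sign of their median interaction when 1 mouse was left out. For meningeal fibroblasts it was -0.15 without Tg2576 DHA replicate 2 and -0.068 without Tg2576 vehicle replicate 4. For ependyma it was -0.12 with WT vehicle replicate 3 left out and -0.053 with WT DHA replicate 1 left out. Igfbp2 was the meningeal gene of lowest p (1.32 ± 1.07) and Hydin, an axonemal protein of motile cilia, the ependymal one (0.53 ± 0.53). Neocortex genes, which mark adjoining cortex, were at -0.086 and 0.081 over 8 genes, with Etv1 leading (0.51 ± 0.24). Without Tg2576 DHA replicate 1 the neocortex median in Tg2576 mice was -0.032 and the median interaction 0.036. The part of unequal dissection in these medians was not tested.

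Of the list genes called for the interaction, 7 belonged to no opposed list. Higher with DHA in WT mice and near 0 or without a call in Tg2576 mice were the clock transcription factor Npas2 (0.51 ± 0.10 in WT, 0.00016 ± 0.11 in Tg2576, interaction -0.51 ± 0.14), the immature neuron factor Sox11 (0.59 ± 0.13 and -0.014 ± 0.14, interaction -0.61 ± 0.19) and the SNARE protein syntaxin, Stx1a (0.52 ± 0.14 and -0.15 ± 0.16, interaction -0.67 ± 0.21). Npas2 was at 32.9, 29.9, 31.4 and 29.1 CPM in WT vehicle and 40.5, 48.6, 45.9 and 41 CPM in WT DHA mice, against 33.5, 37, 29.1 and 37.4 CPM in Tg2576 vehicle and 33.5, 37.5 and 31.8 CPM in Tg2576 DHA mice. In WT mice the groups were apart for these 3 genes. Gpx1 was described above. Chd7, a chromatin remodeller, was lower with DHA in WT mice (-0.42 ± 0.11) and at 0.088 ± 0.12 in Tg2576 mice (interaction 0.50 ± 0.16).

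The complement inhibitor Cd55 and the nuclear RNA Malat1 had the larger DHA effect in Tg2576 mice. Cd55 was at 4.76, 3.77, 4.73 and 5.14 CPM in WT vehicle, 2.82, 3.41, 4.34 and 2.78 CPM in WT DHA, 4.43, 5.33, 2.75 and 4.19 CPM in Tg2576 vehicle and 5.25, 6.83 and 6.12 CPM in Tg2576 DHA mice (interaction 1.0 ± 0.31), and was 1 of the 29 opposed genes. Malat1 was at 569, 462, 535 and 481 CPM in Tg2576 vehicle and 914, 567 and 654 CPM in Tg2576 DHA mice (interaction 0.75 ± 0.25). Its call was lost in 10 of the 15 fits that left out a mouse.

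In some other lists the medians had the same sign in both genotypes. Cholesterol synthesis genes were higher with DHA in both (0.12 in WT and 0.11 in Tg2576 mice), with the same sign in 21 of 23 genes and a median interaction of -0.0097. Endothelial genes were lower in both (-0.13 and -0.16), and astrocyte genes were near 0 in both (0.026 and 0.013). Mature oligodendrocyte genes were lower in all 20 members in WT (-0.24) and lower in 12 of 20 in Tg2576 mice (-0.051). Genes that handle polyunsaturated fatty acids, the direct substrates of the treatment, had medians of opposite sign but under 0.05 in size (-0.011 and 0.028). None of the 32 was called, against 0.829% of all genes.

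A family outside the 49 lists was added after its values were seen, because Pcdhb8 was among the genes of lowest p. Clustered protocadherins are neuronal adhesion molecules whose combinatorial expression marks single neurons, and 55 of the 58 in the files were tested. The interaction was above 0 in 52 of them, 6 were called positive and none negative (0.445% and 0.384% of all genes), and 43 were lower with DHA in WT and higher in Tg2576 mice. Median effects were -0.29 in WT and 0.24 in Tg2576 mice, with a median interaction of 0.64. Pcdhb8 was at 9.52, 12.9, 12 and 8.24 CPM in WT vehicle and 6.52, 4.9, 5.48 and 5.66 CPM in WT DHA mice, against 6.02, 6.2, 7.05 and 9.02 CPM in Tg2576 vehicle and 7.92, 6.56 and 9.41 CPM in Tg2576 DHA mice (interaction 1.08 ± 0.26). By mouse, the deviation of the family was 0.40, 0.50, 0.24 and 0.20 in WT vehicle and -0.0099, 0.23, 0.0063 and -0.17 in WT DHA mice. It was 0.056, 0.00032, -0.42 and -0.70 in Tg2576 vehicle and -0.50, 0.19 and 0.23 in Tg2576 DHA mice. The WT groups overlapped by 1 mouse, Tg2576 DHA replicate 1 lay with the low vehicle mice, and the genes share one locus and much of their sequence, so they do not count as separate observations. With length and GC offsets together the median interaction of the family was 0.60, and with 1 surrogate variable 0.22.

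The counts depended on single mice. Leaving out 1 mouse at a time gave 87 to 527 interaction calls, in place of 162. The highest came without Tg2576 DHA replicate 1 (527, of which 115 were among the 162), then with replicate 2 (347) or replicate 1 (247) of Tg2576 vehicle omitted. The lowest came without WT vehicle replicate 1 (87), WT DHA replicate 4 (90) and Tg2576 DHA replicate 3 (95). No fit gave a gene past an adjusted p of 0.05 except DESeq2, as above.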

How the data were processed

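Hippocampal RNA of 15 female mice was sequenced on 1 flow cell and lane. The methods name TruSeq Stranded mRNA libraries from 1 μg of RNA and the labels a SMARTER kit with 1.3 μg, and which was used was not resolved. Per the submitters' processing notes, the authors used FastQC 0.11.8, STAR 2.6.1c and featureCounts 1.6.0 with the mouse genome GRCm38 and deposited raw counts per gene for each mouse. No strand setting is stated, so overlapping antisense genes cannot be told apart, and by the tool's default reads that map to several places are not counted.

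Counts of 55401 genes were filtered with filterByExpr (minimum count 10), leaving 19536, scaled by TMM and fitted with edgeR 4.0.16 (R 4.3.3, limma 3.58.1), with 1 coefficient per group over all 15 mice and the robust quasi-likelihood F test. The interaction contrast was the DHA effect in Tg2576 minus that in WT mice. Calls were made at an unadjusted p under 0.01, and Benjamini-Hochberg adjusted values are given too. Errors of log2 effects are SE, computed as the effect divided by the square root of F. Depth ran from 17372864 to 46596489 counts, and the common biological coefficient of variation was 20.1%. Nothing in the labels describes littermates, cages or dissection days, so p-values measure the spread between these mice only. Single genes were drawn by rule from the 12 of lowest interaction p in each direction, the 10 opposed genes of lowest interaction p, and in each list described the called members, up to 4 of lowest p and the most abundant, plus App. Alternatives were DESeq2 1.42.0, limma-voom, other scalings and filters, a replicate block, length and GC offsets, 1 surrogate variable (sva 3.50.0) and leaving out each mouse. The fit was also run on simulated counts, drawn gene by gene from its own estimates of spread. These held no length or GC trend between mice, so that run cannot speak to such trends. Members and lists were chosen with earlier results of these data known. A gene of the lists is not reported here.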

Additional observations from a re-analysis of the deposited data

Results flagged for a closer look

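Within groups of 4 mice, 13 of 243 sets of values examined had 1 mouse far from the other 3 by Dixon's gap test at the 95% level, where chance gives about 1 in 20. Of genes with a negative interaction, Apba3 was at 32.8 CPM in Tg2576 vehicle replicate 4 (others 26.6 to 27.6), Gm47283 at 83.8 CPM in the same mouse (others 39.3 to 44.9) and Traip at 23.5 CPM in WT vehicle replicate 3 (others 24.3 to 24.4). Of genes with a positive interaction, Stra6 was at 28.8 CPM and Shisa2 at 5.04 CPM in Tg2576 vehicle replicate 2 (others 19.1 to 20 and 3.58 to 3.63), and Clspn at 1.76 CPM in WT vehicle replicate 3 (others 2.27 to 2.33). In the antigen presentation list, Psmb10 was at 32.3 CPM in WT vehicle replicate 3 (others 29.3 to 29.5) and Tap1 at 18.6 CPM in Tg2576 vehicle replicate 1 (others 5.75 to 7.65). Border tissue genes were high in single mice, with Kl at 103 CPM, Enpp2 at 1061 CPM and Igfbp2 at 136 CPM in WT DHA replicate 3 and Igfbp2 at 76.3 CPM in Tg2576 vehicle replicate 2. The homeostatic microglia list deviated by 0.0419 in WT vehicle replicate 4 (others -0.0488 to -0.0385).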

How the results depend on the processing

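The 162 interaction calls (87 positive, 75 negative) became 247 (136 negative) with DESeq2, 289 (173 and 116) with no count filter, 96 (49 and 47) with the replicate block and GC offset together, and 0 at an adjusted p under 0.05. Without 1 mouse they ranged from 87 to 527, the positive from 39 to 295 and the negative from 41 to 232. The 69 DHA calls in Tg2576 mice became 126 with DESeq2, 126 without a filter, 105 with the length offset, 138 with 1 surrogate variable and 116 with both offsets, an alternative chosen after seeing the data, and ranged from 53 to 312 without 1 mouse. The 270 in WT mice ranged from 156 to 331. The 29 opposed genes became 47 without a filter, 19 with the replicate block, 44 with 1 surrogate variable and 2 at p under 0.01 in each genotype (15 to 126 without 1 mouse). The 33 genes of the same sign became 54 with 1 surrogate variable and 50 with both offsets (21 to 63 without 1 mouse). The 13 opposed lists became 7 with the replicate block and length offset, 8 with 1 surrogate variable and 3 with medians of at least 0.1 (7 to 20 without 1 mouse). The App interaction turned to -0.032 with both offsets. The cause of these changes was not tested.

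Same-numbered mice correlated between -0.244 and 0.213 in their deviations from group means, and differently numbered mice between -0.235 and 0.23. The labels do not say what a number marks, so whether the numbers pair the mice cannot be told from these values. The replicate block gave 116 interaction calls, of which 101 were among the 162. The 24 genes of lowest p kept their calls in every leave-one-out fit that tested them (12 of the 15 for Gm10435). They were chosen for low p in the same mice that these fits reuse, so a kept call is no further evidence. Kcna4 lost its call in 11 of these 15, Malat1 in 10, Chd7 and Stx1a in 7 each, Sox11 in 5 and Cd55 in 3. Zeb2 lost it in 3 alternatives with a length offset, at an interaction of 0.25 with both offsets. The median SE of an interaction was 0.25.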
